A study of Mus musculus with 36 samples.

Results

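The surface epithelium of the mouse forelimb was followed through 32 genes, named by symbol in the deposited table of FPKM values (read fragments scaled for gene length and library size) and joined by Ensembl identifier to the table of read counts. All 32 were found among the 50833 genes of the count table, and all 32 passed the filter on low counts in each of the 22 comparisons. The samples were distal forelimbs (DFL, the future hand) and proximal forelimbs (PFL, the arm) dissected from embryos of stage E12.5 of the strain B6CBAF1. The 6 genotypes were wild type (WT) and 5 mutants named for the sites they lack, from Del(CBS1) and Del(CBS1-2) through Del(CBS1-3) and then Del(CBS1-4) up to Del(CBS1-5). The mutant alleles were made with CRISPR/Cas9 and lack a growing number of the sites bound by CTCF, an architectural protein of chromatin, at the Hoxd cluster. The sources used here give neither zygosity nor the number of founder lines. Each genotype had 3 libraries per tissue, 36 in all, each from the pair of limbs of an individual, and total counts ran from 11062069 to 17727891.

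The limb bud is a core of mesenchyme under a thin ectodermal covering, so only a small part of the RNA of a whole limb comes from epithelium. In the embryonic ectoderm the transcription factor p63, together with the AP-2 and grainyhead-like factors, turns on the epidermal programme. Keratins then form the cytoskeleton, desmosomes join cell to cell, and hemidesmosomes fix the basal layer to the basement membrane. Krt5, Krt14 and Krt15 mark the basal layer, whereas Krt8, Krt18 and Krt19 belong to simple epithelia and to the periderm, the transient outer cover of the embryonic skin. At the distal margin the ectoderm thickens into the apical ectodermal ridge, a signalling centre for limb outgrowth. In RNA of whole tissue, fewer cells of a type and less RNA per cell cannot be told apart.

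The DNA upstream of member genes is shown here because the grainyhead-like and AP-2 factors among the members bind known motifs, and genes with and without a match are shown both among those called between the tissues and among those not called. Of the 32 genes, 17 had an entry in the RefSeq promoter table (build GRCm38, 300 bases from 250 before to 50 after each start), with 19 promoters in all. Both strands were searched for the grainyhead-like motif AACCGGTT, its inner letters ACCGGT, and the AP-2 motif GCCNNNGGC, and capitals below mark every match to the second and the third of these. The stretches run 5′ to 3′ towards the gene and stop before its transcript: Krt5 on the minus strand (chr15:101712906-101713155), Krt18 on the plus strand (chr15:102027966-102028178), Epcam on the plus strand (chr17:87635729-87635977), Spint1 on the plus strand (chr2:119237110-119237359), Grhl3 on the minus strand (chr4:135573633-135573882) and Prom2 on the minus strand (chr2:127541468-127541667).
Krt5: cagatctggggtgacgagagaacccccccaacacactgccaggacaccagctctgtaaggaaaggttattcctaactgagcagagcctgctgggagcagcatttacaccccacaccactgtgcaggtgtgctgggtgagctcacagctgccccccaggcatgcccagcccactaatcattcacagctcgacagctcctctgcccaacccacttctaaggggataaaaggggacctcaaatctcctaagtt
Krt18: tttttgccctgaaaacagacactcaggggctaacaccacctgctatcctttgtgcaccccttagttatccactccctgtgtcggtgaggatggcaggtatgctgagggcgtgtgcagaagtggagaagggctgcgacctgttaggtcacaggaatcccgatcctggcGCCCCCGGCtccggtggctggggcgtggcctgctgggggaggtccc
Epcam: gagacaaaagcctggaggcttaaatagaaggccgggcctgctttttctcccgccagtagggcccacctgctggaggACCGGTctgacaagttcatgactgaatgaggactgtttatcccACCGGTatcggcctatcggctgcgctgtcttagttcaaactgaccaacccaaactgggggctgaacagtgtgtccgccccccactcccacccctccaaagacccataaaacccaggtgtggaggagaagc
Spint1: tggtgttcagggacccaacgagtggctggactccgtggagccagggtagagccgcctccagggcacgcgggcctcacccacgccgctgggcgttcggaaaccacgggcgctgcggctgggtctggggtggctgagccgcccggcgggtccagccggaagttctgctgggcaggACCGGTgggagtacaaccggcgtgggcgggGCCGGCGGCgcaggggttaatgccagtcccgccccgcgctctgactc
Grhl3: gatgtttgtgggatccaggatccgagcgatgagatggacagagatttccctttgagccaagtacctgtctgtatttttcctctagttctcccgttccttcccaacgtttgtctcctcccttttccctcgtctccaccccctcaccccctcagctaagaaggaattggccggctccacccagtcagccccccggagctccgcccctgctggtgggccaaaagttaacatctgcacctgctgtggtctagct
Prom2: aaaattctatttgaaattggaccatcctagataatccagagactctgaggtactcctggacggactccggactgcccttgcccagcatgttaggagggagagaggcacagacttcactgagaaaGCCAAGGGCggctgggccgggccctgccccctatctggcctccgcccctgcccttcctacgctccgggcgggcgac
The full motif AACCGGTT was in 0 of the 19 member promoters and in 0.15% of all 32851 promoters. Its inner letters, searched after the member promoters had been seen, were in 2 of the 19 (10.5%), those of Epcam and Spint1, against 2.33% of all. GCCNNNGGC was in 6 of the 19 (31.6%), those of Dsp, Grhl1, Krt18, Prom2, Spint1 and Spint2, against 16.59% of all. Among genes called between the tissues over the 6 genotypes, Krt14, Col17a1, Cldn4, Cldn6, Grhl3, Rab25, Sfn and Tfap2a held none of the motifs. Grhl1 and Prom2, which were not called, held GCCNNNGGC. These are matches of letters and not measured binding.

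Every one of the 8 genes taken as defining markers of surface ectoderm (Trp63, Krt5, Krt14, Krt15, Cdh1, Epcam, Esrp1 and Grhl2) was counted in all 36 libraries. Levels between genes are compared as FPKM, which takes gene length into account. The basal keratin Krt5 stood highest, with a median of 65.0 FPKM over the 18 distal libraries and 64.4 FPKM over the 18 proximal libraries. Cdh3, which encodes P-cadherin, followed in distal tissue with a median of 57.8 FPKM, against 17.3 FPKM in proximal tissue. Krt14, the partner of Krt5 in the basal filaments, had medians of 50.9 FPKM distally and 28.6 FPKM proximally. Krt15 had a median of 33.4 FPKM in proximal and of 4.92 FPKM in distal libraries. At the low end, the factor Ovol1 had a median of 0.40 FPKM distally and 0.23 FPKM proximally, and the simple keratin Krt8 of 0.86 and 0.83 FPKM. The later barrier was barely present: of 19 genes of suprabasal layers, periderm and barrier, 9 passed the filter in the comparison of tissues over the 6 genotypes, and filaggrin (Flg) had 0 counts in all 36 libraries.

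**Figure D1:**
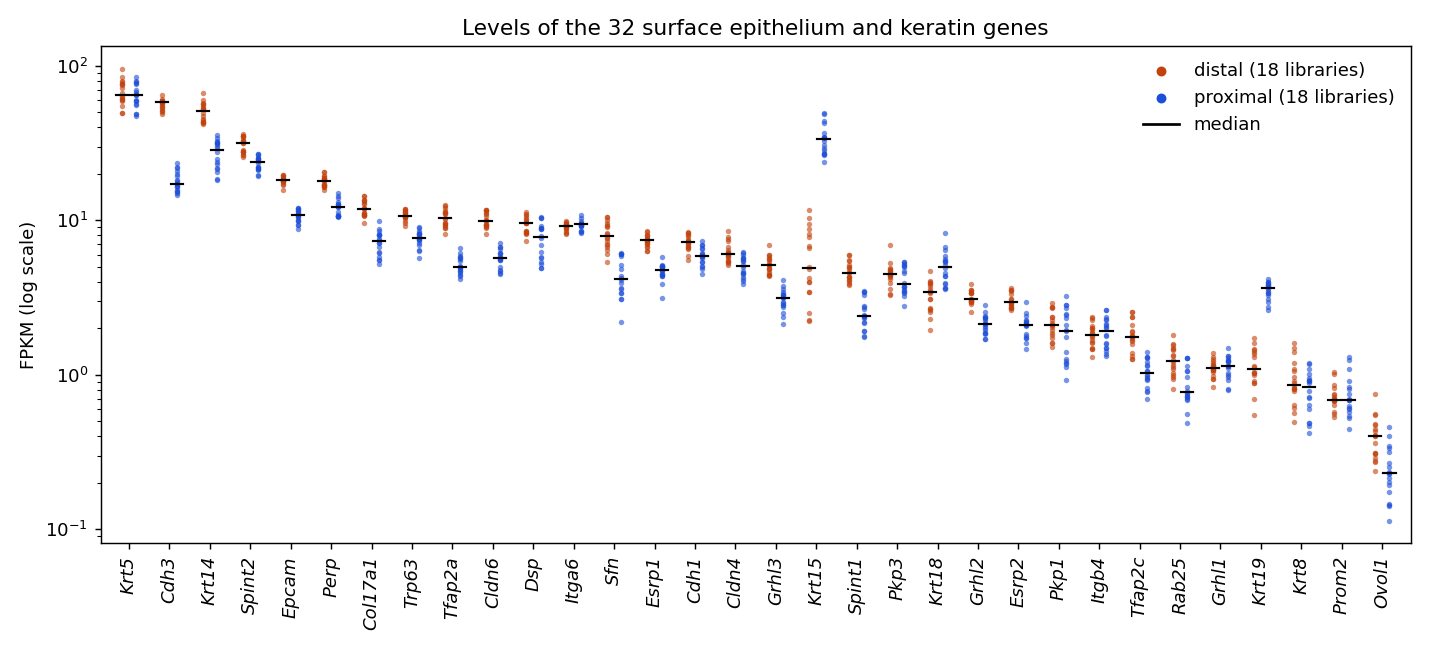
FPKM on a log axis for the 32 genes, ordered by their distal median, with 1 point per library (18 distal, 18 proximal) and black bars at the medians. Krt5 is level between the tissues at medians of 65.0 and 64.4 FPKM, whereas Krt15 drops from 33.4 FPKM in proximal to 4.92 FPKM in distal tissue.

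The comparison of distal with proximal tissue asks how the RNA of these genes differs between the hand plate and the arm. It was made on whole tissue, so a difference need not lie in the covering. In the count test (edgeR, with a threshold of 0.05 on the p adjusted by Benjamini-Hochberg across the whole table), 14 of the 32 genes were higher and 3 were lower in distal WT tissue, where 13.6% of all genes were called higher and 17.1% lower. The median log2 fold change of the 32 was 0.45, against 0.00 over all genes tested. Averaged over the 6 genotypes, in 1 fit of the 36 libraries, 22 were higher and 3 lower, beside 34.4% and 34.2% of all genes, with a median of 0.52. CPM are counts scaled to a common library size. The summed level of the 32 genes was 1394 to 1770 CPM in distal and 884 to 1266 CPM in proximal libraries, which do not overlap. That separation depends on Cdh3, which alone was at 307 to 404 CPM in distal and 90.1 to 151 CPM in proximal libraries. Without Cdh3 the sums of the tissues overlap. For 11 of the 32 genes all 18 distal libraries lay above all 18 proximal libraries, and for 2 all lay below, whereas 5.24% and 7.94% of all genes did so.

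Among the epidermal transcription factors 6 of 7 were higher distally over the 6 genotypes. Trp63, which encodes p63, the master regulator of stratified epithelia, was at 62.1, 63.4 and 64.7 CPM in the distal WT libraries and at 32.6, 50.7 and 46.9 CPM in the proximal ones. The WT groups did not overlap, and the first proximal library was the lowest of the 6. The log2 fold change in WT was 0.54 (SE 0.14, adjusted p = 0.0190), and over the 6 genotypes 0.57 (SE 0.04). Tfap2a, which encodes AP-2 alpha, had the largest difference of these factors in the fit over the genotypes. It was at 35.97, 43.1 and 38.1 CPM distally and 18.4, 24.4 and 22.7 CPM proximally in WT. Its log2 fold change was 0.83 in WT (SE 0.12, adjusted p = 0.000998), where that of Tfap2c was 0.89 (SE 0.25), and 0.99 over the 6 genotypes (SE 0.04). Its relative Tfap2c was 0.80 higher (SE 0.09) over the genotypes. The grainyhead-like factors, which drive epidermal differentiation and closure, differed among themselves. Grhl3 was 0.75 higher distally (SE 0.05) and Grhl2 0.54 higher (SE 0.05) over the genotypes, each called in all 6, whereas Grhl1 was at -0.04 (SE 0.07, adjusted p = 0.627) and was called in none. Ovol1, a zinc finger factor of epidermal differentiation, was 0.89 higher (SE 0.13) over the genotypes and was called in 3 of 6, with 7 to 46 counts per library.

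The epithelial splicing factors Esrp1 and Esrp2, which set the epithelial isoforms of many transcripts, were both higher distally in all 6 genotypes. Esrp1 was at 36.6, 38.4 and 34.1 CPM in distal WT and at 15.6, 28.2 and 23.9 CPM in proximal WT. The groups did not overlap, and the log2 fold change over the 6 genotypes was 0.65 (SE 0.05), against 0.53 (SE 0.05) for Esrp2.

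The keratins split, and the basal ones did not move together. Krt5 was at 189, 199 and 181 CPM in distal WT and at 156, 220 and 187 CPM in proximal WT, so the distal values fell inside the proximal range. Its log2 fold change was 0.01 in WT (SE 0.11, adjusted p = 0.949) and 0.07 over the 6 genotypes (SE 0.05, adjusted p = 0.252). With libraries of the same number blocked, the latter was called at the same size (adjusted p = 0.0299). Krt14 was at 106, 117 and 112 CPM in distal WT and at 46.9, 80.0 and 59.7 CPM in proximal WT. All 18 distal libraries lay above all 18 proximal ones for this gene. Its log2 fold change was 0.84 in WT (SE 0.16, adjusted p = 0.00439) and 0.91 over the 6 genotypes (SE 0.06). Krt15, a keratin of basal cells, went the other way, at 9.76, 8.60 and 9.03 CPM in distal WT and 69.3, 73.9 and 78.2 CPM in proximal WT. Its log2 fold change was -3.02 in WT (SE 0.09, adjusted p = 8.36e-08) and -2.61 over the 6 genotypes (SE 0.13), the largest difference among the 32 genes. Krt15 was lower distally in 18 of 18 pairs of same-numbered distal and proximal libraries.

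Of the simple epithelial keratins, Krt19 was at 3.28, 2.08 and 2.49 CPM in distal WT and at 6.55, 8.41 and 9.73 CPM in proximal WT, without overlap. Its log2 fold change was -1.66 in WT (SE 0.25, adjusted p = 0.00118) and -1.65 over the 6 genotypes (SE 0.08), with 19 to 143 counts per library. Krt18 was 0.62 lower on the log2 scale by the fit over the genotypes (-0.62, SE 0.08) and was called in 5 of 6. Krt8, which pairs with Krt18 in filaments, was at 0.25 (SE 0.14, adjusted p = 0.131) and was called in none, with 18 to 70 counts per library. Krt15, Krt19 and Krt14 lie close together on chromosome 11 of GRCm38, on the minus strand at 100131757 to 100135928, 100140809 to 100146120 and 100203161 to 100207548. Neighbours there thus differed in opposite directions between the tissues. Of the stretches of 50 bases in the transcripts of a gene, the same number as the read length, 13.88% in Krt14 also occur in Krt16 or Krt17, 26.93% of those of Krt8 in its pseudogene Krt8-ps, and 8.52% of those of Krt5 in genes such as Krt6a. Outside the keratins, the shares were 15.03% for Sfn (with Gm7850 and Gm5279) and 5.31% for Itga6. Counts of these 5 genes are therefore less certain than those of Krt15 (0.64%) and Krt19 (0%). Krt17, named here after its values were seen, was itself higher distally by 0.93 (SE 0.08) over the genotypes. Krt14 shared more of these stretches with Krt16 (188) than with Krt17 (55). What either gene adds to the counts of Krt14 was not tested.

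**Figure D2:**
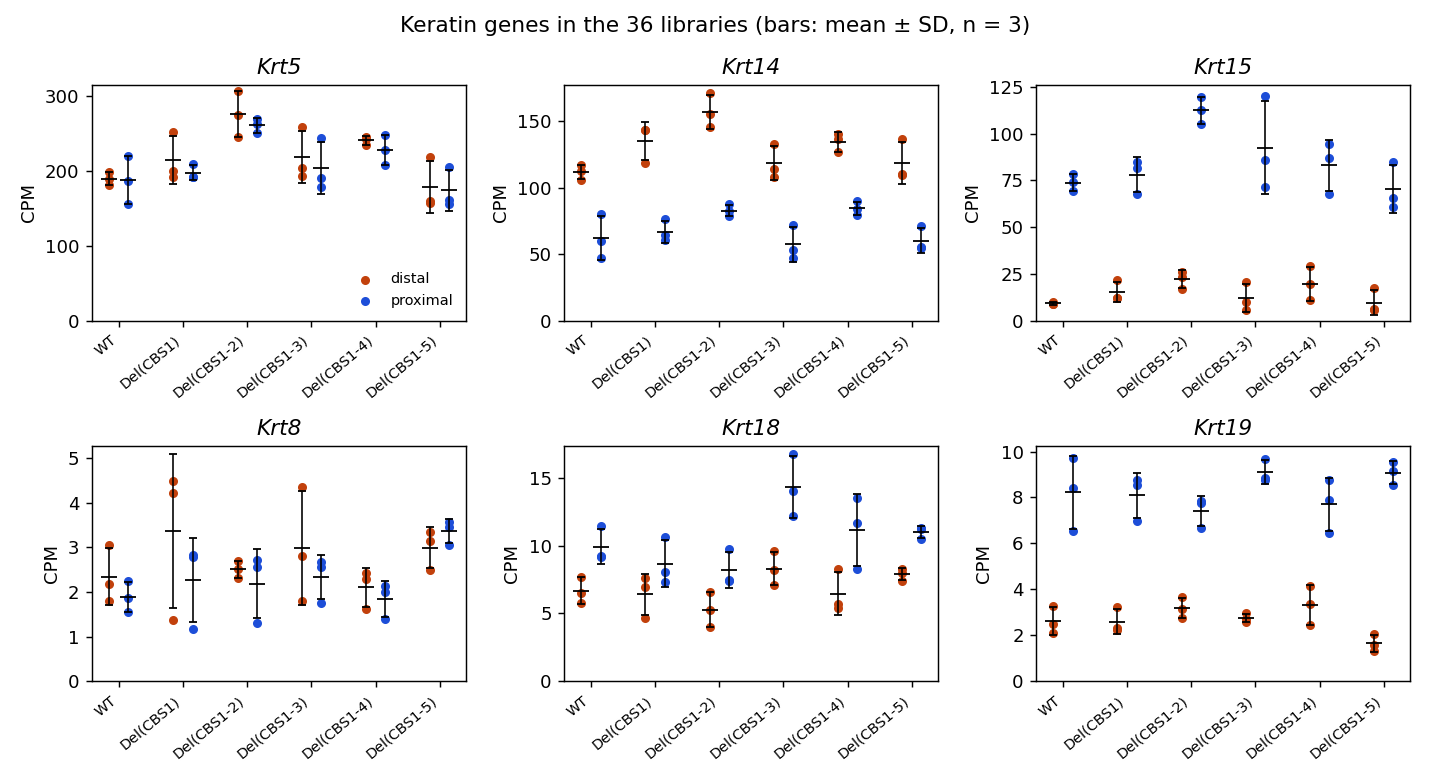
CPM of the 6 keratin genes in each of the 36 libraries, by genotype, with distal libraries in orange, proximal in blue, and black bars for the mean ± SD (n = 3). Krt14 is higher in distal tissue and Krt15 and Krt19 in proximal tissue in all 6 genotypes, while the distal and proximal points of Krt5 overlap.

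The genes of cell adhesion and tight junctions were all higher distally over the 6 genotypes (5 of 5). Cdh3 stood out, at 346, 321 and 376 CPM in distal WT and at 97.5, 140 and 106 CPM in proximal WT. Over all genotypes the lowest of the 18 distal libraries was at 307 CPM and the highest of the 18 proximal ones at 151 CPM, so the tissues did not overlap. Its log2 fold change was 1.60 in WT (SE 0.12, adjusted p = 3.16e-05) and 1.65 over the genotypes (SE 0.04), the largest rise among the 32 genes. Cdh1, which encodes E-cadherin, the other classical cadherin of epithelia, differed much less, at 0.29 (SE 0.04) over the genotypes, and was called in 3 of 6. Epcam, an adhesion protein of epithelial cells, was at 45.1, 45.5 and 40.5 CPM in distal WT and at 25.6, 28.6 and 24.2 CPM in proximal WT, with a log2 fold change of 0.76 (SE 0.04) over the genotypes. The claudins, which seal tight junctions, were unequal, with Cldn6 0.83 higher (SE 0.04) and called in 6 genotypes and Cldn4 0.30 higher (SE 0.05) and called in 2.

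Among the desmosome genes Perp, a p63 target needed for desmosomes, was 0.58 higher distally (SE 0.03) and called in all 6 genotypes. Dsp, which links desmosomes to keratin filaments, was 0.33 higher (SE 0.08) and called in 4, and the plakophilin Pkp3 was 0.19 higher (SE 0.06), a call made only over the genotypes. The plakophilin Pkp1 was at 0.17 (SE 0.09, adjusted p = 0.114) and was called with the block of same-numbered libraries (adjusted p = 0.0262). Of the hemidesmosome genes, Col17a1, which encodes its transmembrane collagen, was 0.73 higher (SE 0.05) and called in all 6 genotypes. Its partners, the integrin chains Itga6 and Itgb4, were at -0.03 (SE 0.03, adjusted p = 0.272) and -0.06 (SE 0.06, adjusted p = 0.390). Itga6 is made by other cells too, endothelium among them.

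In the group of membrane, trafficking and protease control 4 of 5 genes were higher over the genotypes. The membrane protease inhibitors Spint1 and Spint2 were 0.91 (SE 0.07) and 0.39 (SE 0.04) higher. Sfn, which encodes the epithelial 14-3-3 sigma, was 0.87 higher (SE 0.09), although in WT alone it was not called (0.66, SE 0.32, adjusted p = 0.157) unless same-numbered libraries were blocked (adjusted p = 0.0108). Rab25, a GTPase of epithelial membrane recycling, was 0.51 higher (SE 0.10) with 13 counts in its lowest library. Prom2, a membrane protein of epithelial protrusions, was not called (0.00, SE 0.07, adjusted p = 0.988).

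The mutants were compared in the same way. In distal tissue 18 members were higher and 2 lower in Del(CBS1) (16.5% and 19.7% of all genes), 19 and 3 in Del(CBS1-2) (24.8% and 25.9%), 18 and 3 in Del(CBS1-3) (15.9% and 18.3%), 18 and 3 in Del(CBS1-4) (17.8% and 20.8%), and 19 and 3 in Del(CBS1-5) (19.4% and 21%). Called higher in each of the 6 genotypes were Trp63, Grhl2, Grhl3, Tfap2a, Esrp1, Esrp2, Krt14, Cdh3, Epcam, Cldn6, Perp, Col17a1 and Spint1, and called lower in each were Krt15 and Krt19. The share of all genes called alike in all 6 genotypes was not counted, so this list is a description only. Cdh3 ranged from 1.32 to 1.92 and Krt15 from -3.02 to -2.07 over the genotypes. In WT the count of 17 calls was 11 to 18 when 1 of the 6 libraries was left out, with 11 without the third distal library. In those refits the calls of Trp63, Grhl2, Grhl3, Tfap2c, Esrp1, Esrp2, Krt18 and Spint1 were each lost at least once, and the other 9 were kept.

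**Figure D3:**
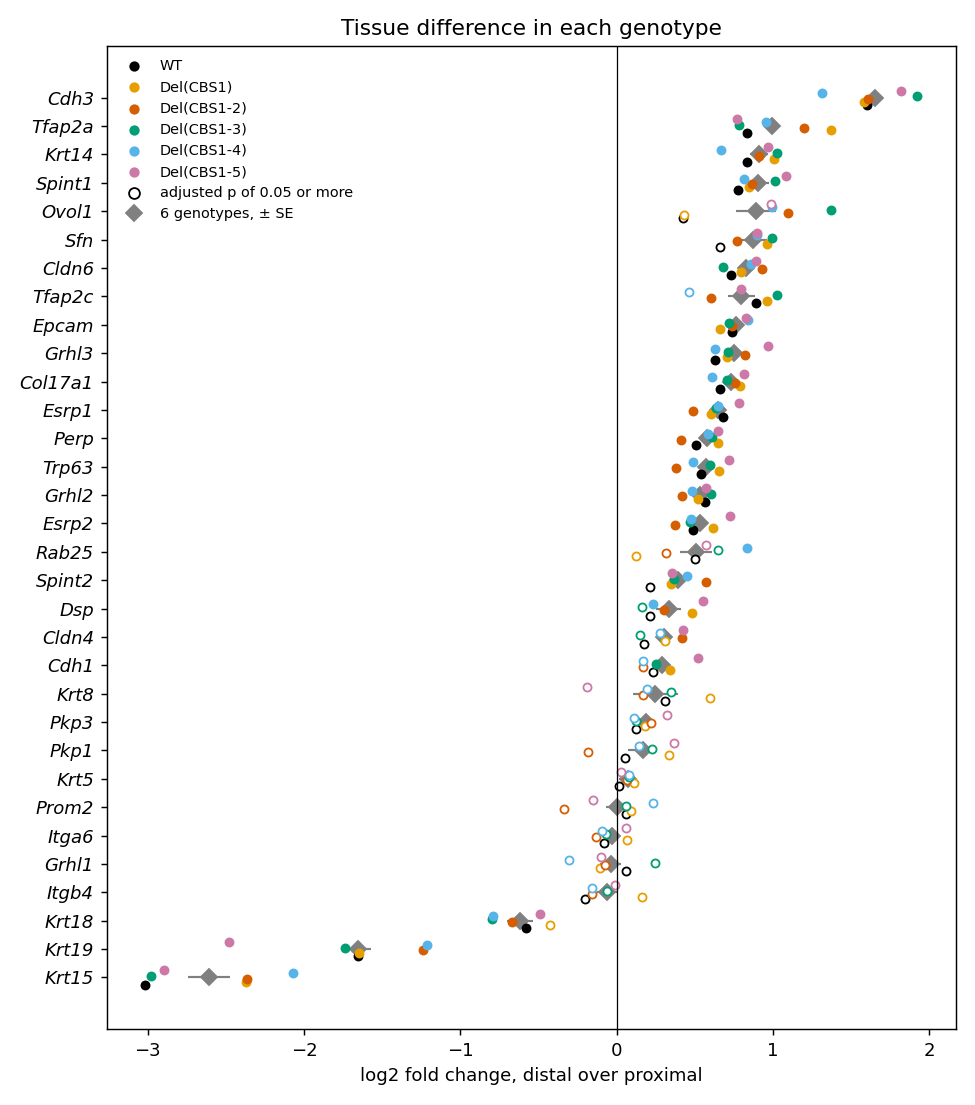
Log2 fold change of distal over proximal tissue for each of the 32 genes, with 1 circle per genotype (filled where called, open where not) and a grey diamond for the fit over 6 genotypes ± SE. Cdh3 is at the top at 1.65 and Krt15 at the bottom at -2.61, and most other genes sit above 0.

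Markers of other tissues moved with the same contrast. All 16 skeletal muscle genes were lower distally over the genotypes (median log2 fold change -5.51), their sum being 24.4 to 176 CPM in distal and 2176 to 3928 CPM in proximal libraries. Pax7 and Myh8 had 0 counts in at least 1 distal library, and the other 14 were counted in all 36. Of 14 endothelial genes 13 were lower and 1 was higher. Of 18 mesenchyme genes 13 were lower and 5 higher. Nerve and Schwann cell genes were lower in 9 and higher in 1 of 11 tested, and their sum was 134 to 209 CPM in distal and 336 to 396 CPM in proximal libraries. Macrophage genes were lower in 9 of 12, erythroid genes higher in 5 of 11 tested, and melanoblast genes higher in 2 and lower in 1 of 4 tested. The part of tissue composition in the differences of the 32 genes was not tested. Other genes listed for the ectoderm, on lists chosen with earlier results of these data known, were counted in the same fit. In that fit 34.4% of all genes were called higher and 34.2% lower. Of 40 tested of 41 other epithelial genes 26 were higher and 6 lower (median 0.40), among them Myo5b (-2.94, SE 0.08), Dsc2 (1.12, SE 0.06) and Dsc3 (1.70, SE 0.10). Dsc2 and Dsc3 encode desmosomal cadherins. Of 23 genes tested for apical ridge and ectoderm signalling 18 were higher and 4 lower, led by Lef1 (1.18, SE 0.03), Sp6 (2.01, SE 0.09), Edar (2.7003, SE 0.12) and Dlx3 (1.159, SE 0.05). Of the 9 tested barrier and suprabasal genes 3 were higher and 3 lower, close to those shares, among them Calml3 (-2.87, SE 0.12), Klf4 (-1.24, SE 0.09), Tgm1 (0.80, SE 0.09) and Krt1 (-0.85, SE 0.12).

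The comparisons of each allele with WT ask whether the loss of CTCF sites at Hoxd went with altered RNA of these genes in whole tissue. All alleles of a tissue are compared with the same 3 WT libraries, so their values are given side by side. In distal Del(CBS1-2) 10 of the 32 genes were higher than in WT and 0 lower, where 4.47% of all genes were called higher and 5.99% lower, and the median of the 32 was 0.26 against 0.00 over all genes. The 10 were basal, junctional and membrane genes (Krt5, Krt14, Cldn4, Pkp1, Itgb4, Col17a1, Spint2 and Prom2), Sfn, and the factor Grhl3. At an unadjusted p under 0.05 there were 17, beside 26.6% of all genes.

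Krt5 was at 276, 307 and 246 CPM in distal Del(CBS1-2), against 181 to 199 CPM in distal WT (log2 fold change 0.52, SE 0.13, adjusted p = 0.0167). Krt14 was at 146, 171 and 155 CPM, against 106 to 117 CPM (0.47, SE 0.10, adjusted p = 0.00711). Pkp1 was at 18.5, 18.7 and 16.5 CPM, against 11.1 to 12.8 CPM (0.57, SE 0.12, adjusted p = 0.00695). For all 3 genes each mutant library lay above each WT library. Cldn4 had the smallest adjusted p of the 32, at 20.3, 22.2 and 19.8 CPM against 13.7 to 14.6 CPM (0.52, SE 0.09, adjusted p = 0.00306). Krt15 was at 26.1, 23.4 and 16.8 CPM against 8.60 to 9.76 CPM, also apart, but its fold change of 1.25 had an SE of 0.43 and missed the threshold (adjusted p = 0.0737). The factor Trp63 was not called, at 60.2, 63.8 and 56.4 CPM against 62.1 to 64.7 CPM (-0.10, SE 0.07, adjusted p = 0.369), as was Epcam (0.07, SE 0.07, adjusted p = 0.576). The remaining called genes ran from 0.34 for Spint2 to 0.59 for Sfn and Prom2. Leaving out 1 of the 6 libraries gave 7 to 10 calls. The call of Prom2 was lost without any of the WT libraries and without the first or second mutant library, that of Grhl3 without WT library 1 or 3 or mutant library 2, that of Krt5 without the second mutant library, and that of Itgb4 without the third.

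Other lists moved with this allele in distal tissue. The muscle sum was 91.9 to 176 CPM in distal Del(CBS1-2) and 45.8 to 46.9 CPM in distal WT, with 2 of 16 genes called higher and none lower. The mesenchyme sum was 6266 to 6622 CPM against 5377 to 5718 CPM, and that of apical ridge and ectoderm signalling 1051 to 1105 CPM against 850 to 931 CPM. Nerve and Schwann cell genes summed to 200.3 to 209 CPM against 152 to 165 CPM, endothelial genes to 576 to 600.3 CPM against 528 to 535 CPM, and barrier and suprabasal genes to 29.7 to 34.7 CPM against 25.7 to 28.6 CPM. Each of these 6 sums stood apart above WT. The erythroid sum stood apart below it, at 2335 to 2481 CPM against 2672 to 3754 CPM, and the macrophage and melanoblast sums overlapped with WT. The sum of the 41 other epithelial genes was 1421 to 1499 CPM against 1428 to 1456 CPM, so these overlapped, with 6 of 39 tested genes called higher and 0 lower. The part of tissue composition in the calls was not tested.

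In proximal Del(CBS1-2) 1 of the 32 genes was called against WT, where 0.253% of all genes were called higher and 0.468% lower. Prom2 was at 8.26, 6.89 and 8.51 CPM against 3.82, 3.55 and 4.49 CPM in proximal WT, without overlap (log2 fold change 0.996, SE 0.18, adjusted p = 0.0155). That call was lost without mutant library 1 or 3 or WT library 1. There were 4 calls without WT library 2, 3 by DESeq2, 9 by edgeR without the filter on low counts, and 0 by limma on log2(FPKM + 0.1). The shares of all genes given for this allele are those of the main fit only. At an unadjusted p under 0.05 there were 12 members, beside 19.5% of all genes. Several genes called in distal tissue had proximal values of like size that missed the threshold, such as Krt5 (0.48, SE 0.12, adjusted p = 0.0699), Itgb4 (0.48, SE 0.17, adjusted p = 0.129) and Pkp1 (0.82, SE 0.27, adjusted p = 0.116). Whether Del(CBS1-2) acted unequally on distal and proximal tissue was tested as an interaction, called for 0 of the 32 (0.0491% of all genes), with 2 at an unadjusted p under 0.05 (11.1% of all genes), 0 by DESeq2 and 1 by edgeR without the filter. An effect confined to distal tissue was thus not shown.

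The other 4 alleles gave no called member in either tissue by edgeR with TMM scaling and the filter on low counts. In distal tissue the share of all genes called was 0.0325% for Del(CBS1), 0.00651% for Del(CBS1-3), 0.0846% for Del(CBS1-4) and 0.0651% for Del(CBS1-5), and in that order 7, 4, 13 and 4 members had an unadjusted p under 0.05, beside 9.69%, 13.9%, 15.3% and 13.1% of all genes. DESeq2 called 0, 0, 3 and 1 members, and edgeR without the filter 2, 2, 7 and 1. The shares given belong to the main fit, so the counts by other settings show only how the calls depend on the setting. With RLE scaling edgeR called 1 in distal Del(CBS1-4). Without the second WT library there were 2 calls in distal Del(CBS1-4), and without the third there was 1 in distal Del(CBS1-5). In proximal tissue the shares were 0.0443%, 0.0696%, 0% and 0.0696%, with 1, 2, 5 and 3 members at an unadjusted p under 0.05, beside 7.1%, 13.1%, 14.1% and 6.48% of all genes. DESeq2 called 0 for each of these alleles, and edgeR without the filter 1, 2, 6 and 1. Without the second proximal WT library there was 1 call in proximal Del(CBS1-4). Interactions of allele and tissue were called for 0 members in all 4 (shares of all genes 0%, 0.00614%, 0.0184% and 0%), with 1, 2, 1 and 2 at an unadjusted p under 0.05 (2.12%, 3.94%, 6.11% and 5.93% of all genes). DESeq2 called 0 of these and edgeR without the filter 1, 1, 1 and 0.

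In distal Del(CBS1-4) 16 of the 32 genes had all 3 mutant libraries above all 3 WT libraries, beside 9.35% of all genes, and 0 had them below, beside 7.96%. Pkp1 was at 18.2 ± 1.99 CPM against 11.8 ± 0.834 CPM (SD, n = 3) (log2 fold change 0.62, SE 0.12, adjusted p = 0.05002, not under the threshold), and Itgb4 at 0.49 (SE 0.12, adjusted p = 0.0917). In distal Del(CBS1) the like count was 10 above and 0 below, beside 6.26% and 6.65% of all genes, and in distal Del(CBS1-2) 14 above and 1 below, beside 17.2% and 12.8%. It was 6 above and 0 below in distal Del(CBS1-3), beside 8.42% and 7.73%, and 6 above and 1 below in distal Del(CBS1-5), beside 8.37% and 6.09%. In proximal Del(CBS1-2) it was 10 above, beside 13.3% of all genes, and 1 below, beside 1979 of all 15813 genes tested. The other proximal counts were 0 and 1 in Del(CBS1) (5.53% and 5.42%), 2 and 0 in Del(CBS1-3) (8.8% and 8.06%), 1 and 1 in Del(CBS1-4) (8.13% and 7.78%) and 2 and 0 in Del(CBS1-5) (5.25% and 5.81%). Other lists also stood apart from WT in distal Del(CBS1-4), with 0 genes called in any of them. The muscle sum was 49.7 to 152 CPM against 45.8 to 46.9 CPM, the endothelial sum 543 to 559 CPM against 528 to 535 CPM, and the sum of apical ridge and ectoderm signalling 978 to 1034 CPM against 850 to 931 CPM. Barrier and suprabasal genes summed to 31.3 to 36.5 CPM against 25.7 to 28.6 CPM, and erythroid genes to 2065 to 2541 CPM against 2672 to 3754 CPM. The sum of the 41 other epithelial genes overlapped with WT, at 1397 to 1444 CPM against 1428 to 1456 CPM. The mesenchyme, nerve and Schwann cell, macrophage and melanoblast sums overlapped as well. The part of these lists in the separation of the 16 members was not tested. In Del(CBS1-5) Sfn was 0.62 higher distally (SE 0.13, adjusted p = 0.0773), and the median of the 32 proximal values was -0.09, against 0.15 in proximal Del(CBS1-4).

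**Figure D4:**
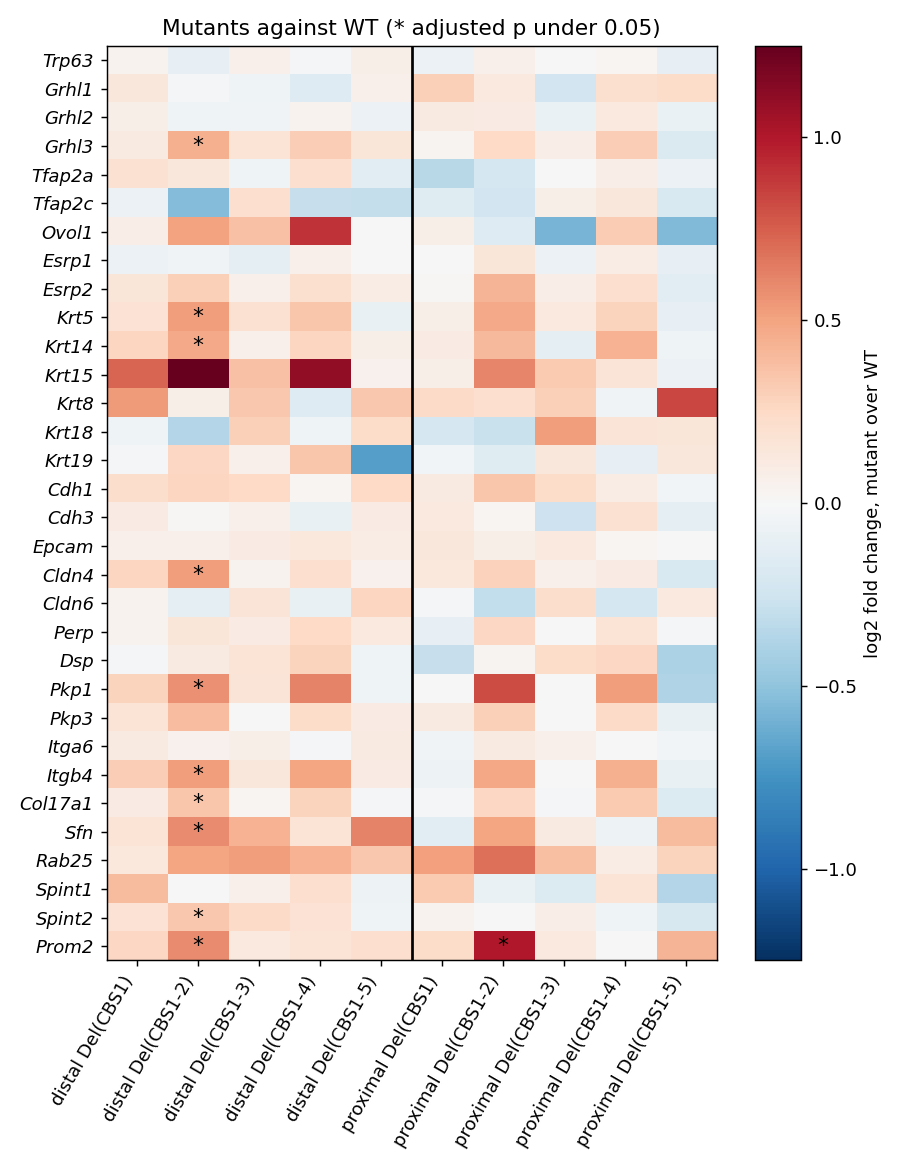
Log2 fold change of each mutant over WT in distal and proximal tissue for the 32 genes, ordered by role, red for higher and blue for lower, with a star where the adjusted p was under 0.05. Stars lie in distal Del(CBS1-2), with 10, and on Prom2 in proximal Del(CBS1-2).

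Krt15 varied more between distal libraries than the other basal keratins, from 5.53 to 29.1 CPM over the 18, and in distal Del(CBS1-4) its mean was 19.8 ± 9.11 CPM (SD, n = 3), against 9.13 ± 0.587 CPM in distal WT. Since muscle RNA is abundant in the proximal limb, as Krt15 is, the relation of 4 keratins to the summed muscle genes was examined in the 18 distal libraries, after these values had been seen. On log2 scales Pearson's r was 0.78 for Krt15 (permutation p = 0.00022, adjusted over the 4 relations 0.00088) with Spearman's rho of 0.73 (permutation p = 0.001, adjusted 0.004). Without the 2 libraries farthest from the median of the muscle sum, r was 0.68, and r of the deviations from the means of the groups was 0.60. For Krt5 r was 0.67 (permutation p = 0.00244, adjusted 0.00488) and rho 0.62 (permutation p = 0.00666, adjusted 0.0133), for Krt19 r was 0.59 (permutation p = 0.00694, adjusted 0.00925) and rho 0.58 (permutation p = 0.0138, adjusted 0.0184), and for Krt14 r was 0.55 (permutation p = 0.0208, adjusted 0.0208) and rho 0.54 (permutation p = 0.0220, adjusted 0.0220). Without the same 2 libraries r was 0.61, 0.40 and 0.53, so that of Krt19 rested in large part on them. Within groups, r of the deviations was lower, at 0.30 for Krt5, 0.32 for Krt19 and 0.02 for Krt14. The values of r within groups were not tested, for Krt15 either. A relation within genotypes was thus not shown for any of the 4 keratins. The permutations take all 18 libraries as exchangeable, although they come from 6 genotypes.

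**Figure D5:**
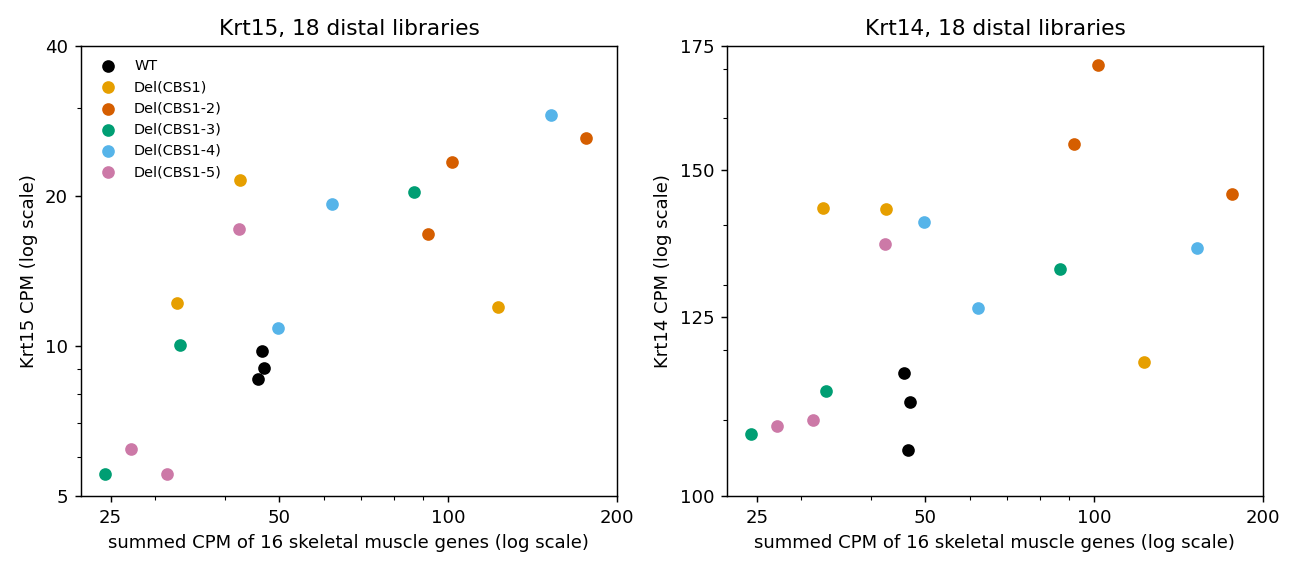
CPM of Krt15 (left) and Krt14 (right) against the summed CPM of 16 skeletal muscle genes in the 18 distal libraries, on log axes, coloured by genotype. Krt15 rises with the muscle sum (r = 0.78), and the 3 WT libraries sit together between 45.8 and 46.9 CPM of muscle RNA.

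Beyond genotype and tissue, members varied together from limb to limb to an unequal degree. Each library's deviation from the mean of its group of 3 was correlated with the mean deviation of the other 31 genes over the 36 libraries. The correlation was highest for Col17a1 (r = 0.86), Grhl3 (0.80), Krt14 (0.79) and Krt5 (0.79), and close to 0 for Krt8 (-0.06) and Cldn6 (-0.08), and the median between pairs of members was 0.25. Among 12845 other named genes with a mean of at least 1 CPM, the profile was followed most closely by Nectin4 (0.79), Clstn1 (0.78), Tnks1bp1 (0.78), Hmcn1 (0.77), Crim1 (0.76) and Ptpn13 (0.76), where the 99th percentile was 0.60. Of these Nectin4 encodes an adhesion protein of epithelia. All these values share the libraries and their scaling, and they are descriptions without a test. The first proximal WT library had the lowest member sum of its group, at 886 CPM against 993 and 1200 CPM.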

How the data were processed

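Poly(A) RNA of distal and proximal forelimbs was read in strand-specific libraries, and the titles of the samples gave the group and the replicate number. Per the file headers, the authors deposited read counts per Ensembl gene, and FPKM values per gene. Named in the submitters' processing notes are the build mm10 and, without their roles, bedtools 2.27.1, Cufflinks 2.2.1, STAR 2.7.0 and cutadapt 1.16. How strand entered the counting is not stated there, and reads of members with a gene on the other strand (Esrp2 and Nfatc3, for example) may therefore be shared. All sample columns were matched by title (0 left over).

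Counts were tested with edgeR 4.0.16 (TMM scaling, filterByExpr, glmQLFit and glmQLFTest, R 4.3.3). Each genotype's tissues were compared in 6 libraries, alleles with WT in the 18 libraries of a tissue, and tissues over genotypes and interactions in all 36. Each p was adjusted by Benjamini-Hochberg over all genes tested, at a threshold of 0.05. CPM use TMM library sizes. Alternatives were DESeq2 1.42.0, RLE scaling, no filter on low counts, limma 3.58.1 on log2(FPKM + 0.1) and log2(FPKM + 1) for genes with a mean of at least 0.1 FPKM, a replicate block, and leaving out each library. The test was tried on simulated counts. Between simulated WT tissues (14684 genes) it recovered 73.1% of 1.5-fold and 89.6% of 2-fold changes, with 6.9% false calls. Over simulated genotypes (15918 genes) these were 98.5%, 100% and 7%. For simulated Del(CBS1) against WT they were 89.6%, 97% and 2.6% in distal (15119 genes) and 82.1%, 94% and 3.7% in proximal tissue (15575 genes). False calls thus exceeded the 5% aimed at in both tissue comparisons. In each simulation 67 genes were altered 1.5-fold, 67 were altered 2-fold and 66 were altered 3-fold. The altered genes were drawn from those with an average log2 CPM over 2, so genes with fewer counts were left out. For Del(CBS1) against WT, 196 genes were called in distal and 190 in proximal simulated counts, whereas the measured counts gave 5 and 7. Between WT tissues 188 genes were called in simulated and 4578 in measured counts, and over the genotypes 214 and 11175. Recovery where so few or so many genes are called, or by expression level, was not tested.

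The replicate numbers pair the tissues. Same-numbered distal and proximal libraries of a genotype deviated together from their group means in 18 of 18 cases (r 0.23 to 0.65 over 14026 genes). Per the labels' protocols, each library came from the pair of limbs of an individual. Replicates differed beyond sampling noise (chi-square per degree of freedom 2.66 to 21.2). The members and all gene lists were chosen with earlier results of these data known. All 32 members are named, with up to 4 genes of another list by the smallest p and the 6 genes most like the members. The rule also picked a gene of another list that is not reported here. Shared stretches of 50 bases and gene positions come from GENCODE M21 (GRCm38).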

Additional observations from a re-analysis of the deposited data

How the results depend on the processing

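Of 159 called member results, none reversed in 2658 alternative values, 111 lost significance and 2547 kept direction and call. The counts of members called moved mainly without the filter on low counts, which tests more genes. Here and below, no share of all genes under the same setting stands beside the counts. They show only how the calls depend on the setting. Distal calls against WT were then 2 for Del(CBS1), 2 for Del(CBS1-3), 7 for Del(CBS1-4) and 1 for Del(CBS1-5). Proximal calls were 1, 9, 2, 6 and 1 for the 5 alleles from Del(CBS1) to Del(CBS1-5), and interactions 1 each for Del(CBS1) to Del(CBS1-4). DESeq2 called 3 members in distal Del(CBS1-4), 1 in distal Del(CBS1-5) and 3 in proximal Del(CBS1-2). RLE scaling called 1 in distal Del(CBS1-4), and limma on log2(FPKM + 0.1) called 0 in proximal Del(CBS1-2). For these the cause was not tested.

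With 1 library left out, the members called were 11 to 18 between WT tissues, 7 to 10 in distal Del(CBS1-2), 0 to 2 in distal Del(CBS1-4), 0 to 1 in distal Del(CBS1-5), 0 to 4 in proximal Del(CBS1-2) and 0 to 1 in proximal Del(CBS1-4). The 2 calls in distal Del(CBS1-4) came without the second WT library, the 1 in distal Del(CBS1-5) without WT library 3, and the 4 in proximal Del(CBS1-2) and the 1 in proximal Del(CBS1-4) without the second proximal WT library.

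With the replicate block the tissue comparisons called 18, 20, 24, 22, 20 and 22 members in WT and the 5 alleles in order, and 27 over the genotypes. Beside the calls given with the results, the block added Cdh1 and Itga6 in Del(CBS1-2) and Dsp in Del(CBS1-3), lost Rab25 in Del(CBS1-4) (adjusted p = 0.0506), and changed no other member call between tissues. Across genotypes of a tissue, libraries shared only a number (r -0.27 to 0.41, median -0.02 over 90 pairs), and the block gave 9 calls in distal Del(CBS1-2), Prom2 being lost.

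Depth limits the precision of the members with few counts, such as Ovol1, Krt8, Rab25 and Krt19.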
